A study of Mus musculus with 15 samples.

Results

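The transcriptome described here is that of cultured mouse islets that received a control adenovirus. Its members were the 5 libraries whose columns in the deposited table of all genes carry the label GFP, out of 15 libraries in the series. In the study, islets of C57BL/6 mice (C57BL/6J in the methods of the study) were pooled from 6 mice on each of 5 separate days, and each pool was split over 3 adenoviruses. The 5 libraries were prepared from whole-islet RNA taken 48 hr after transduction with the virus for green fluorescent protein (GFP), a marker protein driven by a viral promoter that is not specific to a cell type. The other 10 libraries, which received constitutively active Nfatc1 or Nfatc2, were not used, and islets without virus were not analysed here. The replicate number stands for the day and its pool of mice. The SD given with each mean thus covers the spread between 5 pools, and no groups were compared.

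An islet is a cluster of endocrine cells within the exocrine pancreas. Beta cells make insulin and islet amyloid polypeptide, alpha cells glucagon, delta cells somatostatin, PP cells pancreatic polypeptide and the rare epsilon cells ghrelin. The hormones are cut from larger precursors and stored in dense-core granules, which fuse with the cell membrane when glucose metabolism closes potassium channels and lets calcium in. Capillaries, pericytes, resident macrophages, nerve endings and glia run through the islet, and fragments of acinar and ductal tissue can come along when islets are isolated.

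The values were expected counts per gene, which the authors had divided by a size factor per library, and are called normalized counts below. Depth was 13.4 to 18.9 M expected counts per library, and each library summed to 16.9 to 18.1 M normalized counts. The table had 20308 entries, of which 14767 were above 0 in all 5 libraries and 3418 were listed at 0 in all 5. A mean of at least 10 normalized counts was reached by 13443 entries, at least 100 by 10621 and at least 1000 by 4196. Between libraries, Pearson's r of log2 values lay between 0.976 and 0.994 across the 10621 genes with a mean of at least 100, which are not independent of each other. Levels of different genes are compared per kb of transcript, after scaling each library to a sum of 1000000. Since whole islets were sequenced, fewer cells of a type and less RNA per cell cannot be told apart.

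The promoters of the hormone genes are shown because the products of these few genes fill much of the libraries. Homeodomain factors such as Pdx1 bind A boxes, which have TAAT as their core, and basic helix-loop-helix factors such as Neurod1 bind E boxes. Each line gives the 250 bases before the transcription start from the RefSeq promoter table (build GRCm38.p6), read 5′ to 3′ on the gene's strand, with TAAT or ATTA and CATCTG or CAGATG in capitals. The windows are chr19:52264047-52264296 for Ins1 (plus strand), chr2:62483654-62483903 for Gcg (minus strand), chr6:142298175-142298424 for Iapp (plus strand), chr16:23890845-23891094 for Sst (minus strand) and chr11:102101320-102101569 for Ppy (minus strand). No window is given for Ins2.
Ins1: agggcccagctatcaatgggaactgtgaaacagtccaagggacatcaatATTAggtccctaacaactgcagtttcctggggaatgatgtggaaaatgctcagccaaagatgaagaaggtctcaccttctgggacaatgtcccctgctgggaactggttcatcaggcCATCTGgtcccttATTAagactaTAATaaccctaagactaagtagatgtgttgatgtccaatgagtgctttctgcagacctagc
Gcg: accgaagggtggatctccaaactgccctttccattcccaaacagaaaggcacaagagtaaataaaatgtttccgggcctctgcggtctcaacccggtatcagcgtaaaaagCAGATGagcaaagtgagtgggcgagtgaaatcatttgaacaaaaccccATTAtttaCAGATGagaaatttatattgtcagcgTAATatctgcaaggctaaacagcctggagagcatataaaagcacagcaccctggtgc
Iapp: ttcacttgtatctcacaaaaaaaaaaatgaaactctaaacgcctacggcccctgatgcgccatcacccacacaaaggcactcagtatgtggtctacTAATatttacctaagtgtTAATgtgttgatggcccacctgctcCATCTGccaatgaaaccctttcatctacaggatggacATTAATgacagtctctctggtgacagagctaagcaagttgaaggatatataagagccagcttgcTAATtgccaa
Sst: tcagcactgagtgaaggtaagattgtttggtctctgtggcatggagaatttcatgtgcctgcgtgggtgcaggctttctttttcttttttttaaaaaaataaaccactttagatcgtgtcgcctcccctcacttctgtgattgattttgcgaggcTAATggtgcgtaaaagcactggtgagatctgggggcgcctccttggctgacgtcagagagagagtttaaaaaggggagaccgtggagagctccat
Ppy: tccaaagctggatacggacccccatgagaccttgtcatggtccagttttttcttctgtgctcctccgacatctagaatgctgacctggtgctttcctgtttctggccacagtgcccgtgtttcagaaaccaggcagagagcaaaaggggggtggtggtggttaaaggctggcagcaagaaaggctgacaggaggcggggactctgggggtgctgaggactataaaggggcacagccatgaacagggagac

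Counted on both strands, TAAT was found 3 times in the Ins1 window and 5 times in the Iapp window, where a pair of matches overlap. It was found 2 times in the Gcg window and 1 time in the Sst window, and not in the Ppy window. CATCTG was found 1 time each in the Ins1 and Iapp windows, 2 times in the Gcg window, and in neither the Sst nor the Ppy window. These letters are common. Of 32851 RefSeq promoter windows of the same length, 54.9% held TAAT, 17.3% held it at least 3 times, 14.4% held CATCTG and 8.91% held both. A match describes the sequence only. The windows end at the annotated starts, which were not checked against the reads. The counts hold for these windows and may miss elements near another start of the same gene.

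The hormone genes stood at the top of the abundance ranks. Ins2, the mouse gene that corresponds to the insulin gene of other mammals, was first of all entries, with 955582, 962582, 855078, 705555 and 608181 normalized counts in replicates 1 to 5. Replicates 1 and 2 were the highest and replicate 5 the lowest, and Ins2 took 4.64 ± 0.77% of the total (SD, n = 5). Gcg, which encodes the precursor of glucagon, came next with 496676, 436469, 589419, 369170 and 494490 normalized counts. Iapp, which encodes the amyloid peptide stored with insulin, had 490967, 443877, 368460, 390678 and 327048. The ranges of Gcg and Iapp overlapped, so that their order in counts did not go beyond their spread. Ins1, the second mouse insulin gene, was at rank 4 with 183411, 231453, 256841, 193255 and 163762 normalized counts, and it was below Gcg and Iapp in every library. Ins1 and Ins2 are near-identical copies, and how reads shared by both were divided between them is uncertain.

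The other islet hormones followed at lower ranks. Ppy, the pancreatic polypeptide gene, was at rank 12 with 37806, 48729, 51580, 42172 and 48112 normalized counts. Sst, the somatostatin gene, was at rank 31 with 14033, 23372, 28093, 22825 and 21071, and replicate 1 was the lowest of the 5. Pyy, the gene of peptide YY, was at rank 37 with 16771, 19059, 24074, 17280 and 20239. Ghrl, the ghrelin gene, was measured at only 66.5 ± 13.4 normalized counts (SD, n = 5), at rank 11244. Together the 8 hormone genes took 11.3 ± 1.19% of the total, with 9.94% in the lowest and 12.3% in the highest library. Replicates 4 and 5 were the lower ones, at 10.1% and 9.94%, and the other 3 libraries lay between 12.1% and 12.3%.

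Hormone transcripts are short, so their share was larger per kb. There the 8 genes took 31.1 ± 2.69% of the total. Ins2 reached 166603 ± 22523 per kb, above Iapp in every library with no overlap of their ranges. Iapp at 50701 ± 5522 and Gcg at 46427 ± 8120 overlapped, with Iapp the higher in 3 of 5 libraries. Ins1 had 30183 ± 4884, and its range overlapped that of Gcg although it was the lower in every library. Its length here was the gene span, and a shorter length would raise Ins1, so its place depends on the length used. Ppy at 9952 ± 1441 stood apart from its neighbours on both sides. Pyy at 3738 ± 628 and Sst at 3223 ± 785 overlapped, with Pyy the higher in 4 of 5 libraries. Ghrl was last at 16.7 ± 3.59.

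The balance between hormones varied between the pools. Ins2 was 7.27, 5.81, 4.65, 5.10 and 5.18 times Ins1 per kb in replicates 1 to 5. This ratio averaged 5.60 ± 1.02 (SD, n = 5) with the RefSeq gene span of 719 bases as the length of Ins1. It averaged 8.27 with the GENCODE length of 1062 bases, while Ins2 had a transcript length of 515 bases. A gene span includes any intron, and a length of Ins1 that is too long raises the ratio. By counts, with no length used, Ins2 was 4.01 ± 0.73 times Ins1. Ins2 was 3.68 ± 0.83 times Gcg per kb, between 2.60 in replicate 5 and 4.66 in replicate 2. Within the summed hormone counts, Ins2 held 40.8 ± 3.34%, Gcg 24.1 ± 3.97%, Iapp 20.3 ± 2.28% and Ins1 10.3 ± 1.34%. Replicate 5 had the highest Gcg part, 29.4%, and the lowest Ins2 part, 36.1%. Ppy exceeded Sst 3.18 ± 0.53 times per kb, and the ratio was above 1 in every library.

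**Figure D1:**
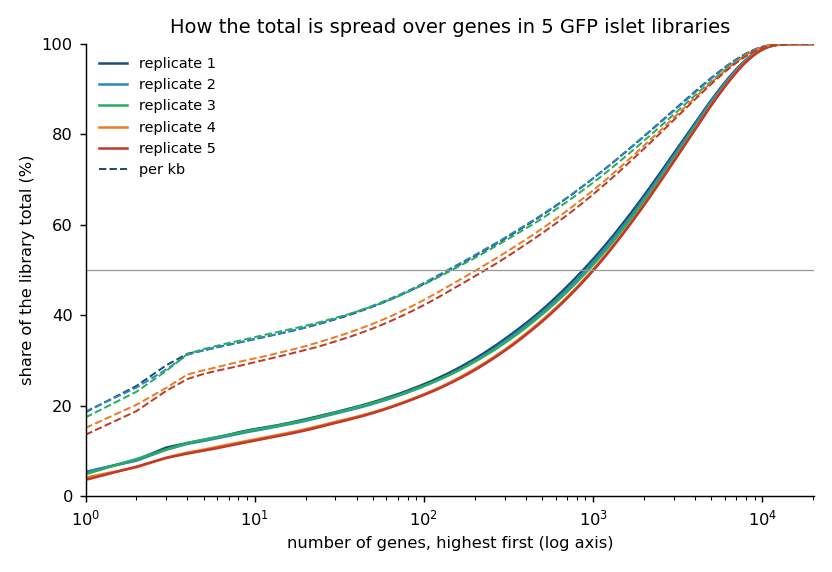
Share of each library's total (vertical axis, %) held by the genes up to a given number, highest first (horizontal axis, log scale), for normalized counts (solid lines) and values per kb (dashed lines) in the 5 GFP libraries. The 50% line is crossed at 873 to 1007 genes for normalized counts, while averaged per kb values cross it at 171 genes.

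The total was concentrated in few genes. The first 4 genes, Ins2, Gcg, Iapp and Ins1, held 10.8% of the mean total, the first 10 held 13.8%, the first 100 held 23.7% and the first 1000 held 51.0%. To hold 50% of the total took 873, 906, 936, 992 and 1007 genes in replicates 1 to 5, and 946 genes for the mean of the libraries. Replicates 4 and 5, where hormones took the smallest shares, needed the most genes. Per kb, 171 genes held 50%, and the first 10 genes alone held 32.9%.

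Behind the hormones, the ranks were filled by translation, chaperone and granule genes. Eef1a1, which brings aminoacyl-tRNA to the ribosome, was at rank 5 with 123076, 116455, 102585, 108765 and 109750 normalized counts. Chga, which encodes the granule protein chromogranin A, was at rank 6 with 104006, 105359, 130266, 110593 and 87147. The ranges of Eef1a1 and Chga overlapped. Hspa8, the constitutive cytosolic HSP70 chaperone, had 98806, 78869, 69213, 83503 and 93252, and Scg2, the gene of secretogranin II, had 83872 ± 11253 (SD, n = 5). Others among the first 25 were the ferritin light chain gene Ftl1 (42032 ± 3773), the gene of the lipogenic enzyme Acly (38349 ± 2264), the polyubiquitin gene Ubb (34968 ± 3011), and Atp2a2 (29544 ± 2625), which encodes the calcium pump of the endoplasmic reticulum. Cd164 had the smallest relative spread of these 25, with a coefficient of variation of 3.68%.

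**Figure D2:**
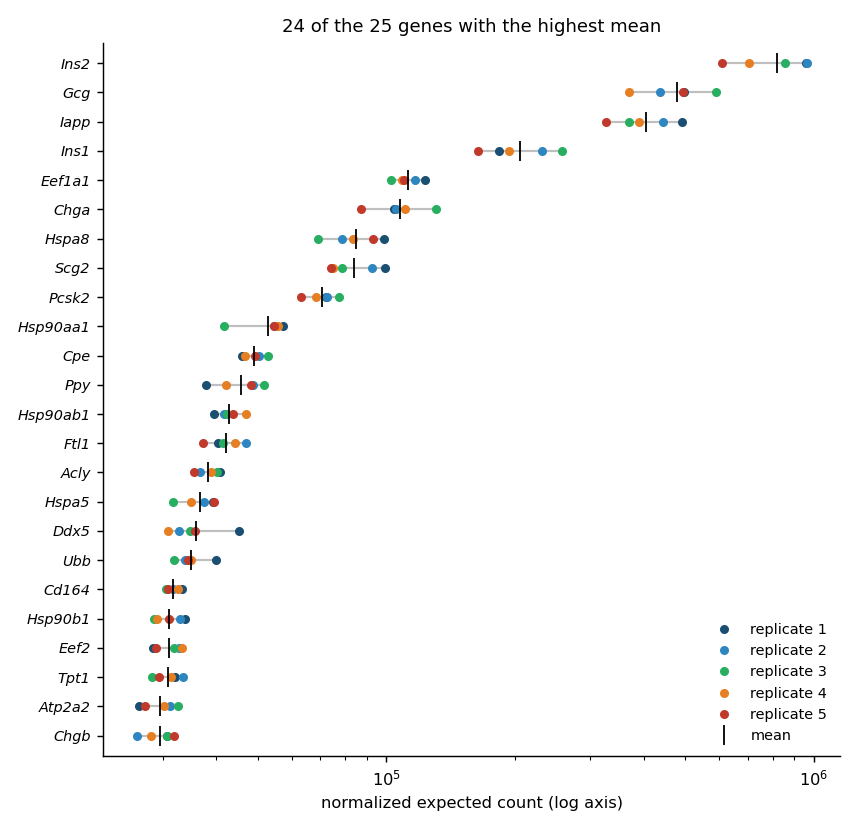
Normalized counts (horizontal axis, log scale) of 24 of the 25 genes with the highest mean. Each point is 1 of the 5 GFP libraries, coloured by replicate, with a tick at the mean and a grey line over the range. Ins2 lies between 608181 and 962582, to the right of every other gene, and the points of most genes from Eef1a1 down overlap with those of their neighbours.

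Granule cargo and processing genes took 2.71 ± 0.134% of the total over 22 genes, between 2.54% and 2.92% in single libraries. The granins and related cargo held 1.55 ± 0.09% over 8 genes. Per kb, Chga led with 6031 ± 811, followed without overlap by Scg2 with 3657 ± 301. Chga exceeded Chgb, the gene of chromogranin B, 5.34 ± 0.89 times per kb and was above it in every library. Pcsk1n, which encodes an inhibitor of prohormone convertase 1, had 967, 1660, 2942, 2520 and 847 normalized counts, a coefficient of variation (SD over mean) of 51.9%, against 14.4% for Chga. Replicates 3 and 4 were high for Pcsk1n, and replicates 1 and 5 were low.

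The enzymes that cut and trim the precursors held 0.792 ± 0.0327% over 4 genes. Pcsk2, prohormone convertase 2, had 72404, 72722, 77362, 68570 and 63155 normalized counts, and Pcsk1, prohormone convertase 1, had 10339, 7981, 7486, 7392 and 7001. Pcsk2 was the higher in every library, by 9.55 ± 1.29 times per kb. Cpe, the carboxypeptidase that removes basic residues after the cut, had 48982 ± 2771 normalized counts with a coefficient of variation of 5.66%. Slc30a8, which encodes the zinc transporter of the insulin granule, had 15338, 13988, 12860, 10790 and 10083, the lowest values again in replicates 4 and 5. The 10 granule membrane genes together held 0.366 ± 0.0235%.

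The machinery of exocytosis held 0.474 ± 0.0236% over 33 genes, of which 20 had a mean of at least 1000, against 4196 of all 20308 entries. Synaptotagmins sense calcium, and Syt7 (395 ± 70.0 per kb) and Syt13 (386 ± 62.2 per kb), which lacks the usual calcium-binding residues, led the list with overlapping ranges. Among the SNARE proteins that join granule and cell membrane, Snap25 reached 183 ± 12.1 per kb and Vamp2 116 ± 21.01 per kb. Stx1a had 11.8 ± 1.24 per kb, and Snap25 exceeded it 15.6 ± 1.31 times, in every library.

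Genes of glucose sensing held 0.589 ± 0.0255% over 54 genes. G6pc2, which encodes the islet glucose-6-phosphatase, led them with 27420, 22088, 19441, 19201 and 17657 normalized counts, or 1223 ± 162 per kb. Replicate 1 was the highest, as it was for 37.5% of all genes with a mean of at least 100. G6pc2 overlapped with no other gene of this list per kb. Slc2a2, the gene of the glucose transporter GLUT2, had 11090, 8046, 7690, 5804 and 5609 normalized counts. It exceeded Slc2a1, the gene of GLUT1, by 11.3, 8.39, 7.81, 5.16 and 4.44 times per kb, so that the order was the same in every library while the ratio spread widely. Hk2, a hexokinase of high glucose affinity, had 24.0 ± 5.74 normalized counts.

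The potassium channel that couples metabolism to voltage is built from Abcc8 and Kcnj11. Abcc8 had 13151, 13985, 16249, 13242 and 13310 normalized counts, with replicate 3 standing above the other 4. Kcnj11 had 556, 794, 806, 773 and 613, and Abcc8 was 8.35 ± 1.14 times as high per kb. Genes described as silenced in beta cells were still measured, and whole islets do not show their level in beta cells alone. Slc16a1, a carrier of lactate and pyruvate, had 88.4 ± 14.1 normalized counts, and Ldha, a subunit gene of lactate dehydrogenase, had 493 ± 93.9. The list of genes kept low in mature beta cells took 0.0139 ± 0.00299% over 18 genes. All 18 had a mean of at least 10, and 7 of them had a mean of at least 100. Of all 20308 entries, 13443 and 10621 reached these means. Of the 18 genes 14 were highest in replicate 5, where 12.9% of all genes with a mean of at least 100 were highest.

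Ribosomal protein genes took the largest share after the hormones among the lists summed here. The 79 genes of the cytosolic ribosome took 3.54 ± 0.218% of the total, 3.27% in replicate 3 and 3.81% in replicate 2, and 7.91 ± 0.426% per kb. No gene dominated this list, since the highest, Rpl10 with 23140 ± 1991 normalized counts, held 3.72% of it. Replicate 2 was the highest library for 67 of the 79 genes, whereas 13.7% of all genes with a mean of at least 100 were highest there. The 76 genes of the mitochondrial ribosome took 0.270 ± 0.0108%, and each had a mean of at least 100, against 10621 of all 20308 entries. Of these 76 genes 29 were highest in replicate 1 and 30 in replicate 2, where 37.5% and 13.7% of all genes with a mean of at least 100 were highest.

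The nuclear genes of the respiratory chain took 0.971 ± 0.0436% of the total over 81 genes, and 1.88 ± 0.0723% per kb. Genes transcribed from mitochondrial DNA were not analysed here. The ATP synthase genes held 0.345 ± 0.0118% over 15 genes and the subunits of complex I held 0.285 ± 0.0158% over 37 genes. Complex IV with cytochrome c followed with 0.167 ± 0.00889%, complex III with 0.0978 ± 0.00445% and complex II with 0.0752 ± 0.0034%. Atp5b, the catalytic beta subunit of the ATP synthase, was the highest per kb at 798 ± 30.2, and it overlapped with Atp5l, another subunit gene of that complex, at 740 ± 27.7. Their median coefficient of variation was 8.81%, close to the 9.19% of all genes with a mean of at least 100.

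**Figure D3:**
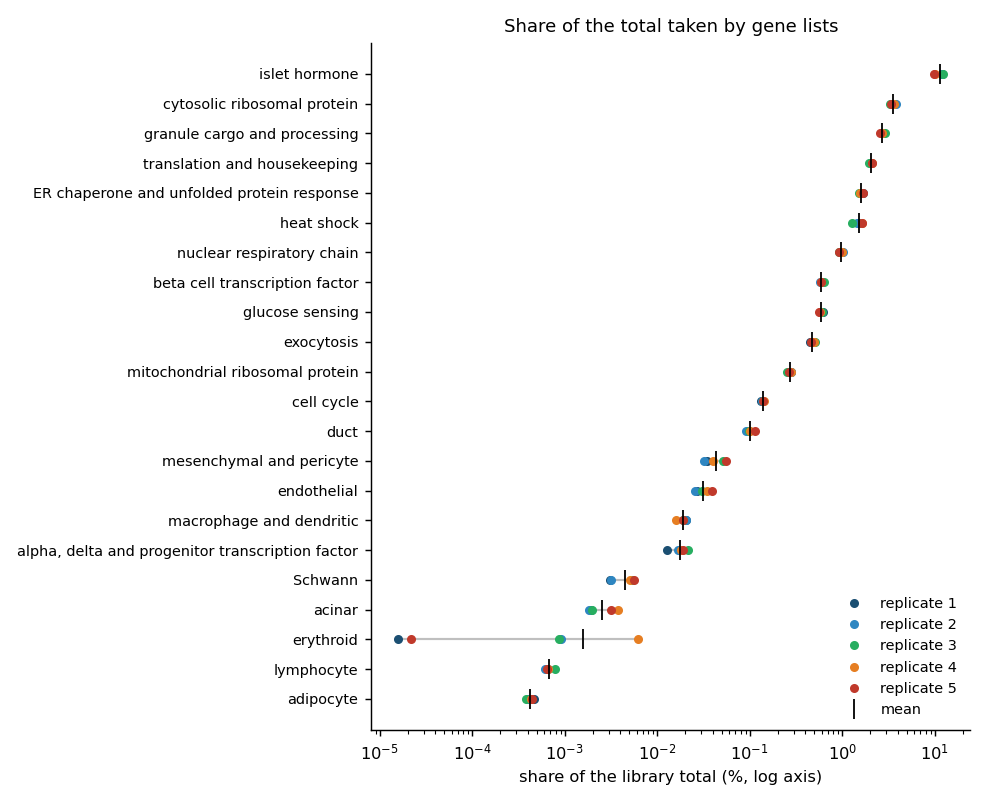
Share of each library's total (horizontal axis, %, log scale) taken by 22 gene lists, with 1 point per GFP library and a tick at the mean. The hormone genes, at 9.94% to 12.3%, lie to the right of all other lists, and the erythroid list has the widest range on this axis, from 1.59e-05% in replicate 1 to 0.00616% in replicate 4.

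Transcription factors of the endocrine lineage were measured over a wide range. Peg3, an imprinted gene for a zinc finger protein, was the highest of the 66 listed beta cell factors with 33550, 27614, 30963, 25845 and 28277 normalized counts, or 356 ± 30.7 per kb. Pax6, which is needed in all endocrine cell types, had 272 ± 10.4 per kb, and Neurod1, which binds the insulin E box, had 191 ± 13.3 per kb. These 3 did not overlap with each other. Below them Mlxipl, a glucose-responsive factor, at 142 ± 16.9 and Pdx1, the homeodomain factor of the insulin promoter, at 142 ± 21.3 overlapped. So did Rfx6, a factor of endocrine differentiation, at 130 ± 12.8, Isl1, a LIM homeodomain factor, at 121 ± 11.7, and Stat3, which carries cytokine signals, at 121 ± 20.2.

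A set of 3 homeodomain factors, picked after their values were seen, shared their high and low libraries. Pdx1 had 2533, 3114, 3462, 3073 and 2341 normalized counts in replicates 1 to 5. Nkx6-1, a factor of beta cell identity, had 2099, 3030, 3523, 3208 and 2147, and Nkx2-2, another islet homeodomain factor, had 799, 1186, 1628, 1360 and 896. All 3 were highest in replicate 3 and lowest in replicates 1 and 5. Other homeodomain factors ran otherwise, since Isl1 with 3456, 2715, 2957, 2549 and 2757 and Pax6 with 8150, 7428, 7334, 6784 and 6851 were highest in replicate 1 and lowest in replicate 4. Of the 66 beta cell factors 26 were highest in replicate 3, where 22.4% of all genes with a mean of at least 100 were highest. The transcripts of Nkx6-1 and Nkx2-2 lie in the quintile of genes with the highest GC content, where the median log2 difference from the mean was -0.20 in replicate 1, 0.14 in replicate 3 and -0.08 in replicate 5. The part of GC content in these levels was not tested.

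Some factors mark maturity or a cell type. Mafa, which is restricted to beta cells in the mouse, had 548, 566, 891, 706 and 362 normalized counts, highest in replicate 3 and lowest in replicate 5. Irx2, an alpha cell factor, had 12.2 ± 2.69 per kb. Hhex, the delta cell factor, had 245, 333, 337, 332 and 357 normalized counts, with replicate 1 below the other 4. The 24 alpha, delta and progenitor factors together held 0.0175 ± 0.00319%.

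Factors of progenitors and of exocrine tissue covered a range, and 5 of the 15 listed had a mean of at least 100, against 10621 of all 20308 entries. Bhlha15, a factor of secretory cells that acinar cells use, was the highest by mean with 403 ± 52.9 normalized counts, or 12.2 ± 1.84 per kb, and overlapped with Irx2. Neurog3, which starts endocrine differentiation, had 80.6, 128, 130, 97.7 and 95.7 normalized counts. Sox9, a factor of progenitors and ducts, had 4.798, 18.8, 26.8, 22.2 and 32.2. Ptf1a, the acinar factor, had 0.96 in replicate 1, which is 1 expected count, and was listed at 0 in the others. Myc, a growth factor-induced regulator of proliferation, had 356 ± 72.7 (SD, n = 5), the lowest of its 5 values, 242, in replicate 1.

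The NFAT family, of which the other libraries overexpress active forms, was measured at baseline together with calcineurin. Calcineurin is a calcium-dependent phosphatase that sends NFAT proteins to the nucleus. Nfat5, which does not need calcineurin, had 2646 ± 172 normalized counts, Nfatc3 had 1216 ± 60.4, Nfatc2 had 566 ± 108, Nfatc1 had 247 ± 49.3 and Nfatc4 had 16.4 ± 2.88. Such counts grow with transcript length, so they do not rank the family. By counts, Nfatc2 was 2.32 ± 0.36 times Nfatc1. Per kb, Nfatc2 was 3.89 ± 0.60 times Nfatc1 and above it in every library. Ppp3r1, the regulatory subunit of calcineurin, had 2906 ± 105 with a coefficient of variation of 3.62%. The 17 genes of this list took 0.266 ± 0.00532%, and the calmodulin gene Calm2 led it per kb with 581 ± 23.9. Calm3, which encodes the same protein, had 226 ± 16.8 per kb and did not overlap with Calm2.

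Receptors for hormones and growth factors differed widely in level. Of 121 receptors for peptides, nutrients and transmitters, 87 had a mean of at least 10 and 7 were listed at 0 in all libraries. Among all 20308 entries these counts were 13443 and 3418. Together the 121 receptors took 0.283 ± 0.00901%. Ghr, the growth hormone receptor, was the highest with 7599, 6367, 5920, 6247 and 6027 normalized counts, or 247 ± 19.8 per kb, and replicate 1 stood above the others. Prlr, the prolactin receptor, had 4465, 3594, 3535, 3253 and 3249, or 99.5 ± 9.55 per kb, again with replicate 1 apart. Sstr3, a somatostatin receptor, had 64.6 ± 7.92 per kb, and Ffar1, which senses long-chain fatty acids, had 59.95 ± 7.97 per kb. Their ranges overlapped.

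The receptors of the incretins and of glucagon were close in level. Glp1r, the receptor of glucagon-like peptide 1, had 2447, 2517, 2774, 2615 and 2004 normalized counts, or 44.9 ± 4.63 per kb. Gcgr, the glucagon receptor, had 793, 707, 654, 607 and 499, or 35.02 ± 4.001 per kb. Gipr, the receptor of the other incretin, had 961, 798, 919, 709 and 602, or 29.4 ± 4.18 per kb. Glp1r exceeded Gipr 1.55 ± 0.21 times and Gcgr 1.29 ± 0.17 times per kb, and both ratios were above 1 in every library. Adra2a, the receptor by which catecholamines inhibit insulin secretion, had 25.1 ± 4.91 per kb, and Vipr1, a receptor of vasoactive intestinal peptide, had 22.7 ± 1.86 per kb.

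Among 105 growth factor, cytokine and nuclear receptors, 97 had a mean of at least 10, against 13443 of all 20308 entries. The list took 0.487 ± 0.0234%. Il1r1, the receptor of interleukin 1, led with 13682, 11331, 12327, 11085 and 11522 normalized counts, or 238 ± 17.2 per kb, and overlapped with no other gene of the list. Ddr1, a collagen receptor, had 100.2 ± 21.8 per kb, and Insrr, an insulin receptor relative that responds to alkaline pH, had 97.7 ± 11.4 per kb. Insr, the insulin receptor itself, had 876, 1119, 1102, 1092 and 1119 normalized counts, with replicate 1 below the others. Insrr was 8.18 ± 1.02 times Insr per kb, and Igf1r, the receptor of insulin-like growth factor 1, was 0.676 ± 0.049 times Insr, below it in every library.

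**Figure D4:**
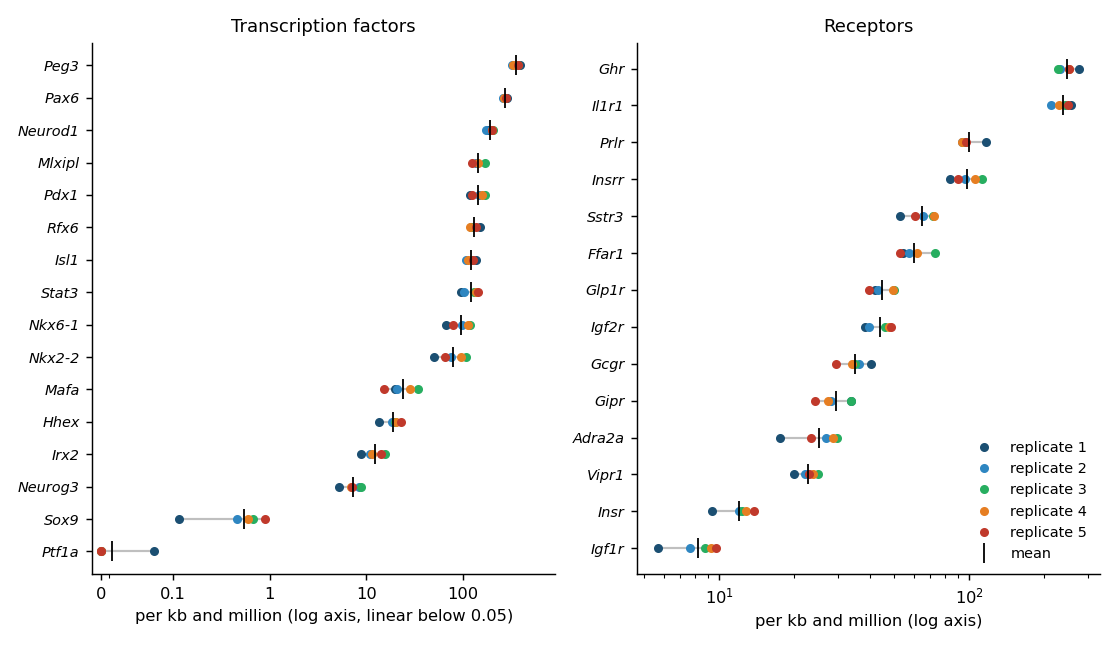
Levels per kb (horizontal axes, log scale, linear below 0.05 on the left) of 16 transcription factors (left) and 14 receptors (right), with 1 point per GFP library and a tick at the mean. The factors run from Peg3 at 356 to Ptf1a, which has a value above 0 in replicate 1 only, and the receptors from Ghr at 247 to Igf1r at 8.21.

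Transcripts of other cell types were set beside those of the endocrine cells to check the label of the tissue. The hormones of beta, alpha, delta and PP cells were all among the first 31 ranks. Acinar genes were at the lower end. The 40 acinar genes took 0.00253 ± 0.000871% of the total. Of these genes 8 had a mean of at least 10, and 7 (Prss1, Prss3, Ctrc, Try10, Reg2, Reg3a and Reg3d) were listed at 0 in every library. Among all 20308 entries these counts were 13443 and 3418. Cela1, the gene of a pancreatic elastase, was the highest with 133, 153, 181, 170 and 184 normalized counts. Some other digestive enzymes were read mainly in replicate 4. Ctrb1, the chymotrypsinogen gene, had 1.92, 0, 1.12, 29.97 and 8.29, and Prss2, a trypsinogen gene, had 0.96, 0, 0, 22.2 and 6.45. A count of 0 allows up to 3 expected counts, or 2.76 to 4.03 normalized counts depending on the library, for counting error only. Of the 40 acinar genes 20 were highest in replicate 4 and 10 in replicate 5, where 13.6% and 12.9% of all genes with a mean of at least 100 were highest. Most of the 40 were so low that their order rests on few counts. Amylase entries could not be separated, because 4 of them carried identical values.

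Duct genes gave a mixed picture. The list took 0.10002 ± 0.00838% over 17 genes, of which the first 5 held 95.1%. These were Krt7, a keratin gene, with 5983 ± 412 normalized counts, Clu, which encodes the secreted chaperone clusterin, with 4406 ± 577, Prom1 with 3498 ± 445, Spp1, the osteopontin gene, with 1793, 1614, 2533, 2116 and 3682, and Ambp with 452 ± 41.8. The defining duct genes were near the floor. Krt19, the keratin used to stain ducts, had 26.5 ± 9.12, and Cftr, the chloride channel of duct cells, had 4.98 ± 1.68. Krt8 and Krt18, the keratin pair of simple epithelia, had 3144 ± 114 and 2209 ± 47.2.

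Vascular and stromal genes were measured in every library. The 20 endothelial genes took 0.0313 ± 0.00556%, from 0.0259% in replicate 2 to 0.0391% in replicate 5, and 12 of them were highest in replicate 5, against 12.9% of all genes with a mean of at least 100. Pecam1, the junction protein CD31, had 590, 465, 495, 623 and 719 normalized counts, and Kdr, the receptor of vascular endothelial growth factor, had 926, 731, 875, 982 and 1171. The 22 mesenchymal and pericyte genes took 0.0427 ± 0.0104%. Col3a1, a fibrillar collagen gene, had 1118, 809, 1347, 1025 and 1440, and Col1a1, another, had 405, 479, 921, 816 and 890. All 22 were highest in replicate 1, 3 or 5, with 10 each in replicates 3 and 5, which were the highest for 22.4% and 12.9% of all such genes. Pdgfrb, the receptor that marks pericytes, had 663 ± 113.

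Among blood cell transcripts, those of red cells were unevenly spread between libraries. The macrophage and lymphocyte shares varied less, by 1.29 times each between the lowest and the highest library. The 23 macrophage and dendritic genes took 0.0190 ± 0.00189%, with C1qa, a complement gene, at 941, 864, 815, 662 and 644 normalized counts and Lyz2, the lysozyme gene, at 949, 882, 751, 548 and 759. Both were higher in replicates 1 and 2 than in replicate 4. Ptprc, the pan-leukocyte gene CD45, had 78.9 ± 13.98, and the 14 lymphocyte genes took 0.000673 ± 6.98e-05%, with Cd3e and Cd3g listed at 0 throughout. Red cell transcripts came mostly from replicate 4. Hba-a2, an alpha globin gene, had 0.96, 71.99, 55.8, 379.8 and 0 normalized counts, and Hbb-bs, a beta globin gene, had 0, 52.4, 37.7, 379.3 and 0. Replicate 4 was also the one with the highest acinar share.

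Nerve and glial transcripts differed between pools. Vip, the neuropeptide gene, had 589, 344, 2646, 1904 and 2624 normalized counts in replicates 1 to 5, low in the first pair of libraries and high in the other 3. Stmn2, a neuronal tubulin-binding protein gene, had 90.2, 60.5, 336, 252 and 330, Prph, the neuronal filament gene peripherin, had 64.3, 43.0, 237, 215 and 173, and Sncg, gamma synuclein, had 58.5, 56.4, 220.2, 165 and 194. All 4 genes were lower in replicates 1 and 2 than in replicates 3 to 5, without overlap. Together with the neuronal genes Gap43, Nsg2 and Chl1, a group of 7 formed after their values were seen, they took 0.0155 ± 0.00949% of the total, from 0.00439% to 0.0241%. The 9 Schwann cell genes took 0.00310%, 0.00320%, 0.00538%, 0.00503% and 0.00563%, in the same division of libraries. The part of nerve tissue on the islets in these levels was not tested.

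Chaperones were abundant in these cultured islets. Heat shock genes took 1.505 ± 0.149% over 20 genes. Hsp90aa1, the inducible cytosolic HSP90, had 57200, 54435, 41795, 55708 and 54715 normalized counts, with replicate 3 below the other 4. Hspa8, Hsp90ab1, the constitutive HSP90 gene, and Hsp90aa1 led the list per kb with 4072 ± 641, 1808 ± 211 and 1705 ± 230, and the ranges of both HSP90 genes overlapped. Chaperones and factors of the endoplasmic reticulum and unfolded protein response took 1.61 ± 0.0607% over 40 genes. Hspa5, the reticulum chaperone BiP, had 39398, 37354, 31734, 34861 and 39494, and Xbp1, a transcription factor of the response, had 5049 ± 116. Ddit3, the stress-induced factor CHOP, had 2516, 2940, 1889, 2725 and 2587.

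Genes of virus entry, interferon response and antigen presentation took 0.351 ± 0.0431% over 45 genes. Cxadr, the receptor that adenovirus binds, had 1182, 1082, 966, 1002 and 1202 normalized counts. Of the 45 genes 32 were highest in replicate 5, where 12.9% of all genes with a mean of at least 100 were highest. The share of 0.420% in replicate 5 was above the 0.313% to 0.355% of the others. B2m, the light chain of class I molecules, had 10118, 6723, 5727, 6605 and 9829, and H2-K1, a class I heavy chain gene, had 15997 ± 1568. Ifnb1, the interferon beta gene, was above 0 in replicate 2 only, at 2.69, and Isg15, an interferon-stimulated gene, had 67.2, 44.3, 59.3, 48.8 and 100.02. With no islets free of virus among the libraries used, the part of the virus in these levels cannot be told apart from that of culture.

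Most proliferation genes were low. The 16 genes of that list took 0.0145 ± 0.000594% of the total. A mean of at least 100 was reached by 5 of them, against 10621 of all 20308 entries. Pcna, a replication factor that is also used in DNA repair, held 57.8% of the list. Mki67, the gene of the antigen Ki67, had 124, 84.7, 142, 94.3 and 123 normalized counts, Top2a, a topoisomerase gene of dividing cells, had 119 ± 32.0, and Cdk1, the mitotic kinase, had 24.7 ± 6.996. Per kb, Cdk4, a kinase of the early cycle, had 178 ± 8.61 per kb and Ccnd2, the gene of its partner cyclin D2, had 136 ± 7.52 per kb, against 103 ± 7.56 for Pcna, 2.42 ± 0.65 for Top2a and 1.196 ± 0.262 for Mki67. Ccnd2 exceeded Ccnd1, cyclin D1, 2.21 ± 0.16 times per kb and in every library.

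The spread between the 5 pools, which includes that between mice and days, was described by the coefficient of variation. Among the 10621 genes with a mean of at least 100, the median coefficient of variation was 9.19%, with quartiles at 6.57% and 12.9%, against a median of 3.84% from counting alone. Among the 4196 genes with a mean of at least 1000 it was 8.09%, and 753 of them were under 5%. A coefficient above 30% was found for 101 genes, 0.951% of the 10621, and above 50% for 12. These 12 were Hba-a2, Steap4, Vip, Stmn2, Lcn2, Prph, Fbln2, Sncg, Dcn, Slc15a2, Timp1 and Pcsk1n.

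Part of this short list was high in replicate 5. Steap4, a metalloreductase gene, had 52.8, 28.2, 63.7, 48.8 and 342 normalized counts. Lcn2, the iron-binding acute phase protein lipocalin 2, had 699.5, 202, 269, 575 and 1033, and Timp1, an inhibitor of matrix proteases, had 174, 95.4, 194, 183 and 386. Dcn, the gene of the matrix protein decorin, had 74.8, 61.8, 114, 129 and 226, and all 4 of these genes were lowest in replicate 2. Fbln2, a matrix protein gene, had 38.4, 63.2, 169, 119 and 185. Slc15a2, a peptide transporter gene, ran otherwise, with 71.97, 152, 187, 99.9 and 44.2, highest in replicate 3. Of the 100 genes with the largest coefficients, 53 were highest in replicate 5 and 36 in replicate 3. Among all genes with a mean of at least 100, these were 12.9% and 22.4%. The 100 genes were picked by their spread between these same libraries.

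The 5 genes with the smallest coefficients, among those with a mean of at least 1000, were Nckap1, Sirt2, Tmem127, Chp1 and Man1a2. Nckap1, a regulator of the actin skeleton, had 10621, 10451, 10472, 10414 and 10521 normalized counts, a coefficient of 0.763%, where counting alone gives 1.02%. They were picked for their small spread from 4196 genes, so that values below counting error are a result of the choice.

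Levels also shifted with base composition. The 10109 genes with a mean of at least 100 and a known transcript sequence were divided into quintiles by GC content. In the lowest quintile the median log2 difference from the 5-library mean was 0.14 in replicate 1 and -0.09 in replicate 3, and in the highest quintile it was -0.20 in replicate 1, 0.14 in replicate 3, 0.11 in replicate 4 and -0.08 in replicate 5. Replicate 2 stayed at or below 0.04 in all quintiles. The median coefficient of variation was 12.6% in the highest quintile and 8.38% to 9.01% in the others. Replicate 1 was the highest library for 37.5% of the 10621 genes. Without replicate 1 the median coefficient of all of them was 7.12%.

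**Figure D5:**
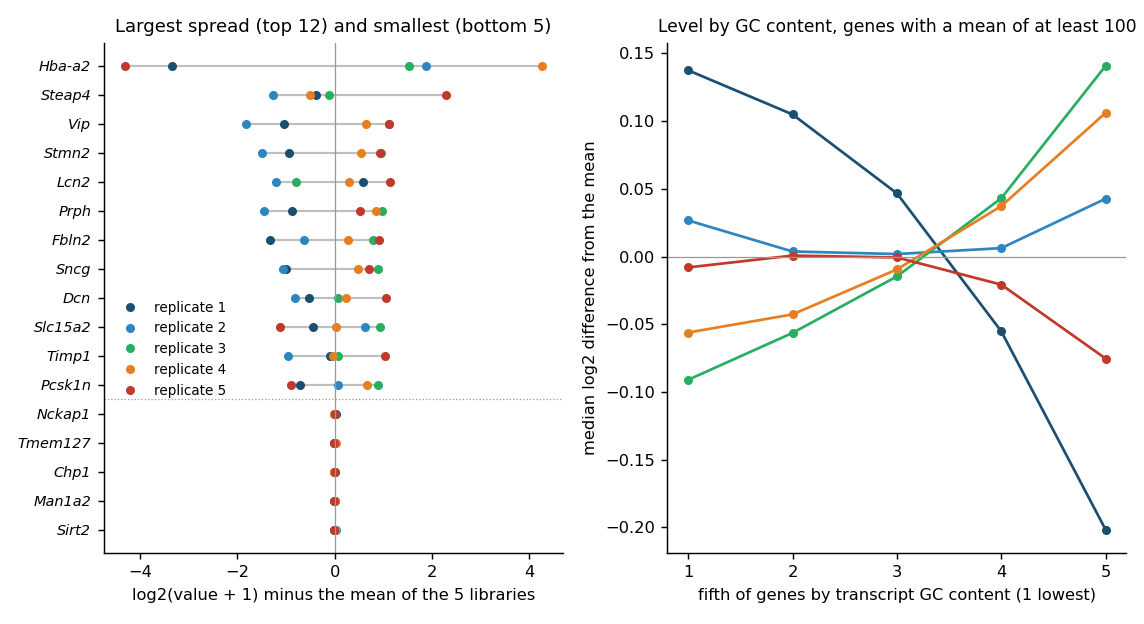
Left, log2(value + 1) minus its mean over the 5 GFP libraries (horizontal axis) for the 12 genes with the largest and the 5 with the smallest coefficients of variation, 1 point per library. Right, median log2 difference from the mean (vertical axis) by quintile of transcript GC content (horizontal axis), 1 line per library. The left panel shows the neuronal genes low in replicates 1 and 2, and the right panel shows replicate 1 falling to -0.20 and replicate 3 reaching 0.14 in the highest quintile.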

How the data were processed

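Whole-islet RNA of 5 GFP libraries was analysed. The authors mapped reads with Bowtie to RefSeq transcripts of mm10 and used RSEM for expected counts. They scaled each library by the median of its ratios, and this expression signal is the unit of the deposited table. The versions of both tools are not given in the sources used here. The 10 columns of the ca-NFAT libraries, the authors' means, ratios of means and posterior probabilities, and a second table holding the entries their model called changed were not used. A spreadsheet date stands in place of the symbol in 27 entries, which were kept in totals and not named. Genes of mitochondrial DNA were not analysed here.

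Shares, means, SDs and coefficients of variation were computed with Python 3.11.15, pandas 2.3.3 and numpy 2.4.6, drawn with matplotlib 3.10.9 and tested on simulated data. The most frequent value above 0 in each library was taken as the worth of 1 expected count, 0.921 to 1.34 normalized counts. The depth and the counting error were computed from this worth. Between 84.1% and 86.0% of low values were whole multiples of this worth within 0.01 expected counts, so the values were not treated as whole reads. Values per kb used the median GENCODE M21 transcript length (GRCm38), limited for 571 genes to the RefSeq gene span, for 20106 entries that hold 99.5% of the total. These lengths may differ from those behind the deposited values. No groups were compared, since the 5 libraries form 1 group. Dixon's Q served only to flag a library that stood apart.

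The genes named were the 25 with the highest mean, the 10 highest per kb, the first 5 of each list (all of lists of up to 8) with markers near 0, and the 12 largest and 5 smallest coefficients of variation. Further genes, among them Pdx1, Glp1r, Mki67 and the NFAT family, were chosen after their values were seen. Some genes of these lists are not reported here. Members and lists were chosen with earlier results of these data known. Of the list entries, 24 symbols were not matched. Alternatives covered leaving out each library, values per kb, other denominators, filters, scaling and averages.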

Additional observations from a re-analysis of the deposited data

Results flagged for a closer look

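In a group of 5 a library was taken to stand apart where its gap to the nearest other library, divided by the whole range, was above 0.71. This ratio is Dixon's Q, and 0.71 is its critical value for 5 samples. Chance gives this for about 1 in 20 groups, and the absolute size of the gap is not weighed. It was found for 3 of 36 lists, for 18 of 228 named genes with a mean of at least 10 (7.89%), and for 614 of the 10621 genes with a mean of at least 100 (5.78%). Some named genes had been chosen for a large or small spread between these libraries, which partly sets the rate among them. No explanation was tested for any library that stood apart.

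Replicate 4 was apart and high for red cell genes, whose share was 0.00616% there, with 379.8 normalized counts of Hba-a2, 379.3 of Hbb-bs, 172 of Hba-a1 and 118 of Hbb-bt. It was also apart and high for the trypsinogen gene Try5 with 39.8 and for Krt8 with 3339.9. Tmem127 was flagged too, with 2732, but this gene had been named for its small spread. Replicate 4 lay only 0.02 above the 5-library mean of Tmem127 on the log2 scale. The globin genes share sequence, and the 4 values are not independent of each other.

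Replicate 1 was apart and high for Ghr with 7599 normalized counts, Prlr with 4465, Pfkfb2, which encodes an enzyme of glycolytic control, with 7017, Gad1, which encodes the enzyme that makes GABA, with 2346, and the T cell gene Cd8a with 16.1. It was apart and low for Insr with 876 and Hhex with 245, and for the share of NFAT and calcineurin genes with 0.257%. Ghr and Prlr lie in the quintile of lowest GC content, where the median log2 difference from the mean was 0.14 in replicate 1. Their own were 0.25 and 0.31. Pfkfb2, Gad1 and Hhex, at 0.43, 0.55 and -0.38, lie in quintile 3, where the median was 0.05. Replicate 1 was the highest library for 37.5% of all genes with a mean of at least 100. The part of GC content was not tested.

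Replicate 3 was apart and low for Hsp90aa1 with 41795 and for Ero1l, an oxidase gene of the endoplasmic reticulum, with 2885. It was apart and high for Abcc8 with 16249 and for the lymphocyte share with 0.000794%. Replicate 5 was apart and high for Steap4 with 342. Replicate 2 stood apart for none of the named genes.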

How the results depend on the processing

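Of 148 alternative values, 115 stayed within the spread between libraries or, for counts and the coefficient of variation, within 1.5 times, and 33 moved. The alternatives on the log2 scale, with a median SD of 0.132 and 0.133, were set against that coefficient converted to the log2 scale. Per kb, the shares were 31.1% for hormone, 2.36% for granule, 7.91% for cytosolic ribosomal, 1.88% for respiratory chain, 0.415% for mitochondrial ribosomal, 0.00385% for acinar, 0.0764% for duct, 0.0186% for endothelial, 0.0281% for macrophage and dendritic, 0.0196% for mesenchymal, 1.09% for heat shock and 1.202% for endoplasmic reticulum genes, and 171 genes held 50%. With lengths not limited to the gene span, an alternative chosen after seeing the data, they were 30.4%, 2.38%, 7.99%, 1.89%, 0.415%, 0.00389%, 0.0772%, 0.0188%, 0.0284%, 0.0198%, 1.104% and 1.21%. Without the hormone genes in the denominator, the share was 3.06% for granule, 3.99% for cytosolic ribosomal, 1.09% for respiratory chain, 0.305% for mitochondrial ribosomal, 0.113% for duct, 0.0214% for macrophage and dendritic, 1.70% for heat shock and 1.81% for endoplasmic reticulum genes. Both follow from how each alternative is built.

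Leaving out each library in turn gave 11.1% to 11.7% for hormone, 2.66% to 2.76% for granule, 3.47% to 3.60% for cytosolic ribosomal and 0.00223% to 0.00271% for acinar genes, and a median coefficient of variation of 7.12% to 9.73%. No paired analysis was possible because the 5 libraries form 1 group and no groups were compared. Low levels are limited by depth, since 3 expected counts came to 2.76 to 4.03 normalized counts.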

Other observations

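Imprinted genes took 0.337 ± 0.0199% of the total over 15 genes (SD, n = 5), and Peg3 held 49.4% of this. Impact, an imprinted gene for an inhibitor of a translation kinase, had 5172, 4267, 4056, 4054 and 4389 normalized counts. Grb10, which encodes an adaptor that binds the insulin receptor, had 1513, 1396, 1434, 1440 and 1623. Zinc genes took 0.245 ± 0.0226% over 13 genes. The metallothionein genes Mt1 and Mt2, whose products bind zinc, led per kb with 2244 ± 344 and 1716 ± 280, overlapping with each other, and Slc30a8 followed without overlap at 672 ± 78.4.

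Genes of the Y chromosome were measured in every library, with Ddx3y, an RNA helicase gene, at 3619, 3362, 2897, 2738 and 2838 normalized counts and Eif2s3y, a translation factor gene, at 2682, 2557, 1971, 2032 and 2169. Hypoxia genes took 0.162 ± 0.00411% over 14 genes, with a median coefficient of variation of 8.37% against 9.19% for all genes with a mean of at least 100. Vegfa, which encodes the vascular growth factor, had 7640, 7741, 7586, 7186 and 6841. Inflammation genes took 0.0221 ± 0.00545% over 22 genes, from 0.0172% in replicate 2 to 0.0310% in replicate 5. Fos, an immediate early gene, had 85.7 ± 7.9998. Ucn3, which encodes the beta cell peptide urocortin 3, had 10393, 7285, 7468, 6563 and 6036. Replicate 1 was the highest, as for 37.5% of all genes with a mean of at least 100.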
